A study of Mus musculus with 6 samples.

Results

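Sorted Paneth cells were examined for 10 genes of the crypt base niche, out of 55414 genes in the count table. The 10 genes were listed by name as niche and positioning factors, and comprised the Wnt ligands Wnt3 and Wnt11, the epidermal growth factor family ligands Egf and Tgfa, the Notch ligands Dll1 and Dll4, the receptor kinases Ephb2 and Ephb3, the Wnt receptor Fzd5 and the macrophage growth factor Csf1. In these 6 libraries 9 of the 10 passed the low-count filter and Wnt11 had no count. Wnt3 was by far the most abundant Wnt ligand transcript, Ephb3 the most abundant EphB transcript, and no member passed the test between the diets.

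Paneth cells sit between the Lgr5-positive stem cells at the bottom of the crypts of Lieberkühn, and are known both for their antimicrobial granules and for the growth factors that they offer to their neighbours. Wnt ligands bind Frizzled receptors and keep stem cells dividing, epidermal growth factor ligands bind ErbB receptors, and Delta-like ligands on the Paneth cell membrane activate Notch on the adjacent stem cell. EphB receptors on crypt base cells meet ephrin-B ligands on cells higher up the crypt-villus axis, and this repulsion is known to hold Paneth cells at the crypt bottom.

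RNA-seq had been performed on Paneth cells that were purified by FACS from the small intestine of WT mice, which the study's methods describe as C57BL/6J. St_TNF mice ate standard chow and ZincDef_TNF mice ate zinc depleted chow, in both cases for 7 weeks, and all mice received TNF, the inflammatory cytokine tumor necrosis factor, 3 hours before sampling. The ages, the TNF dose and the zinc content of the chow are not given in the labels. There were 3 libraries per group, although the design text speaks of 4 replicates, and no library without TNF was analysed here, so that each level below is a level under TNF.

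Total counts ranged from 6139397 to 12772373 per library, and a count of 0 allowed up to 3 counts, or 0.235 to 0.489 CPM (counts scaled by library size). The 8 Paneth cell markers, among them Lyz1 and Mmp7, were over 3 counts in every library and took 50.4% to 60.2% of the counts in the St_TNF libraries and 54.2% to 62.8% in the ZincDef_TNF libraries. The TMM factor, by which edgeR corrects each library size for composition, ranged from 0.90 to 1.73 in the St_TNF libraries and was 1.46, 0.64 and 0.46 in ZincDef_TNF 1, 2 and 3. This correction moved the median log2 fold change of all 9749 tested genes from -0.67, with total counts only, to 0.00. ZincDef_TNF 1 stood apart from the 2 other libraries of its group for most members, and values without it are given beside the members it moves. Of the libraries, ZincDef_TNF 2 and 3 had the fewest genes with a count, 12507 and 12421. ZincDef_TNF 1 had 14058 and the St_TNF libraries 13528 to 14289. On TMM-scaled CPM the Paneth cell markers summed to 292400 to 672200 in the St_TNF libraries. The sums were 372600, 964500 and 1368000 in ZincDef_TNF 1, 2 and 3. Each sum carries the TMM factor of its library, 0.46 in ZincDef_TNF 3, and is not a share of the counts. Since these are bulk samples, fewer cells of a type and less RNA per cell cannot be told apart. The labels number the replicates but do not name the animals, so that p-values measure the spread between these samples.

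The sequence just before the transcription start was read for 3 ligand genes on build GRCm39, to show what the promoters of ligands with unlike counts look like. Wnt3 was taken as the Wnt ligand with the most counts and Egf as the epidermal growth factor ligand with the highest level. Wnt11 was taken as the member among the 9 Wnt ligands with no count. Each line gives the 250 bases before the start of the Ensembl canonical transcript, 5′ to 3′ on the gene's strand, with each CG dinucleotide in capitals. For Wnt11 that transcript starts downstream of the annotated gene start, so that its window lies inside the gene. The Wnt3 window is chr11:103664726-103664975 on the plus strand, the Wnt11 window chr7:98487802-98488051 on the plus strand and the Egf window chr3:129549094-129549343 on the minus strand.
Wnt3: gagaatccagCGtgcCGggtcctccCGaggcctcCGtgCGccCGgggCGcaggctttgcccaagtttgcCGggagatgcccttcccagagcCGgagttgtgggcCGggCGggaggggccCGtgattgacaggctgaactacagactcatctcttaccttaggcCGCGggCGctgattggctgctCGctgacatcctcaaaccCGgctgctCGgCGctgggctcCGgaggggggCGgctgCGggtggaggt
Wnt11: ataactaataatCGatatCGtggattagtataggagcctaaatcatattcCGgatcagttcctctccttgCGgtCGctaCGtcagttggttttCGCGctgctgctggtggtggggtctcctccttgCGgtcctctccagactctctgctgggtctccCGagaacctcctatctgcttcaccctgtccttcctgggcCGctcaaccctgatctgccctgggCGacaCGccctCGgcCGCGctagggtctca
Egf: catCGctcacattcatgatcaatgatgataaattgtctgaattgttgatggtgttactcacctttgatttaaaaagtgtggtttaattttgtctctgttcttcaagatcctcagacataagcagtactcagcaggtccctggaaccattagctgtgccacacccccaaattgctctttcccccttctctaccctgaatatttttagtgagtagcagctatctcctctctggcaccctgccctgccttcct

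The Wnt3 window held 22 CG dinucleotides, more than 87.8% of the 21770 windows of protein coding genes. The window of Wnt11, which had no counts, also held 16, more than 74.8% of windows, whereas the Egf window held 1, more than 7.39%. The median window held 8. The letters ATCAAAG, the core recognised by TCF and LEF factors, were searched on both strands (CTTTGAT on the other) and were found in 1 of the 10 member windows, that of Egf, 189 bases before the start. They were found in 622 of all windows, or 2.86%. These matches are descriptions of the sequence, and no binding was measured.

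To order the members, counts were divided by the length of the canonical transcript and scaled to the same sum in each library. On this level per length Wnt3 had a mean of 15.7 over the 6 libraries, and it lay above 92.9% of the tested genes. Ephb3 followed with 7.81, above 86.0%. Egf (1.73) and Ephb2 (1.66) lay near the middle of all tested genes, at 53.0% and 51.8%. Fzd5 (1.14), Dll1 (0.941), Dll4 (0.712), Tgfa (0.637) and Csf1 (0.371) lay below the middle. Wnt3 was above Ephb3, and Ephb3 above Egf, in 6 of 6 libraries. Further down the order was not firm, since Egf was above Ephb2, Dll4 above Tgfa and Tgfa above Csf1 in 3 of 6 libraries each. Over all libraries the ranges of neighbours in this order overlapped, except that of Csf1 and Wnt11. The place of Egf also depended on the length used. By the union length of all annotated exons it was at 0.926, below Ephb2 (1.655) and Fzd5 (1.32).

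Wnt3, the Wnt ligand that Paneth cells are known to supply to stem cells (ENSMUSG00000000125, chr11:103664976-103708853, plus strand), accounted for nearly all Wnt ligand counts. It had 815, 623 and 601 counts in St_TNF 1, 2 and 3 and 979, 325 and 457 counts in ZincDef_TNF 1, 2 and 3. These were 94.9% to 97.9% of the counts of the 19 Wnt ligand genes in each library. The next ligand, Wnt10a, had 2, 4 and 14 counts in the St_TNF libraries and 37, 7 and 6 in the ZincDef_TNF libraries, fewer than Wnt3 in every library. Wnt5b, the third in order, had at most 5 counts in any library. No other Wnt ligand gene was over 3 counts in all 6 libraries, and 9 of the 19 had no count in any.

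On TMM-scaled CPM, Wnt3 was at 64.5, 67.6 and 67.2 in the St_TNF libraries and at 67.4, 68.5 and 78.0 in the ZincDef_TNF libraries. On this scale all 6 values lay close together, with means of 66.4 ± 1.70 and 71.3 ± 5.83 (SD, n = 3 each). By CPM without the TMM factors they ran from 35.8 to 111.1. The log2 fold change of ZincDef_TNF over St_TNF was 0.10 (SE 0.35, 95% interval -0.66 to 0.87, edgeR adjusted p = 0.937). The direction depended on the scaling: with total counts only it was -0.62, close to the median of all tested genes on that scale.

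Wnt11 (ENSMUSG00000015957, chr7:98484319-98504402, plus strand), a ligand best known from non-canonical Wnt signalling, had 0 counts in all 6 libraries. Taking 3 counts per library as the limit, Wnt3 was per length at least 206-fold higher than Wnt11 in each St_TNF library and at least 111-fold higher in each ZincDef_TNF library. Wnt11 was not detectable at this depth and could not be tested.

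Egf (ENSMUSG00000028017, chr3:129470410-129549093, minus strand), which encodes epidermal growth factor, had 194, 117 and 90 counts in the St_TNF libraries and 256, 39 and 35 in the ZincDef_TNF libraries. On TMM-scaled CPM these were 15.4, 12.7 and 10.1, against 17.6, 8.22 and 5.97. ZincDef_TNF 1 was the highest of the 6 libraries and ZincDef_TNF 2 and 3 were the lowest, so that the groups overlapped. Its log2 fold change was -0.24 (SE 0.45, 95% interval -1.23 to 0.75, adjusted p = 0.880). It was -0.83 without ZincDef_TNF 1 and turned to 0.087 without ZincDef_TNF 3.

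Tgfa, another ligand of the EGF receptor (ENSMUSG00000029999, chr6:86172041-86252728, plus strand), was scarcer, with 46, 42 and 22 counts in the St_TNF libraries and 107, 3 and 2 counts in the ZincDef_TNF libraries. Its TMM-scaled CPM was 3.64, 4.56 and 2.46, against 7.36, 0.633 and 0.341. ZincDef_TNF 2 and 3 thus stood at the limit of 3 counts, while the first library of the same group was the highest of all. The log2 fold change was -0.24 (SE 0.85, 95% interval -2.11 to 1.63, adjusted p = 0.940), and it became -2.84 without ZincDef_TNF 1 (adjusted p = 0.117), 0.23 without ZincDef_TNF 2 and 0.31 without ZincDef_TNF 3. Per length the Egf to Tgfa ratio was 3.46, 2.29 and 3.33 in the St_TNF libraries and 1.98, 9.35 and 11.8 in the ZincDef_TNF libraries. The mean log2 ratio was 1.57 ± 0.33 and 2.59 ± 1.40 (SD, n = 3 each), and the difference of 1.01 had p = 0.4 in an exact two-sided permutation test, adjusted p = 0.667 over 4 such ratios. With 3 libraries against 3 this test cannot go below 0.1.

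Dll1 (ENSMUSG00000014773, chr17:15587276-15597134, minus strand) and Dll4 (ENSMUSG00000027314, chr2:119156170-119166443, plus strand) encode the Delta-like ligands that Paneth cells are known to present to Notch on stem cells. Dll1 had 68, 64 and 43 counts in the St_TNF libraries and 73, 11 and 21 in the ZincDef_TNF libraries. Its TMM-scaled CPM was 5.38, 6.94 and 4.81, against 5.02, 2.32 and 3.58. Dll1 was lower in ZincDef_TNF 2 and 3 than in every St_TNF library, whereas ZincDef_TNF 1 lay within the St_TNF range. Between the diets the log2 fold change was -0.62 (SE 0.45, 95% interval -1.61 to 0.37, adjusted p = 0.709). This value was -0.92 without ZincDef_TNF 1, -0.35 without ZincDef_TNF 2 and -1.20 with total counts only.

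Dll4 had 68, 51 and 13 counts in the St_TNF libraries and 47, 4 and 0 in the ZincDef_TNF libraries, the latter a library in which Dll1 was per length at least 6.61-fold higher. On TMM-scaled CPM Dll4 was at 5.38, 5.53 and 1.45, against 3.23, 0.843 and 0. St_TNF 3 was below ZincDef_TNF 1, so that the groups overlapped. Its log2 fold change of -1.44 was the lowest of the members and also had the widest interval (SE 0.90, 95% interval -3.43 to 0.54, adjusted p = 0.687). Without ZincDef_TNF 1 the value was -3.34, and without ZincDef_TNF 3 it was -0.87. The Dll4 to Dll1 ratio per length was 1.06, 0.846 and 0.329 in the St_TNF libraries, and 0.684, 0.414 and 0.0246 in the ZincDef_TNF libraries. All were computed with 0.5 added to each count, and the last rests on a Dll4 count of 0. The difference in mean log2 ratio was -1.80 (exact two-sided permutation p = 0.4, adjusted p = 0.667).

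Ephb3 (ENSMUSG00000005958, chr16:21023495-21042057, plus strand), the EphB receptor known as a mark of Paneth cells, had 513, 446 and 389 counts in the St_TNF libraries and 868, 104 and 156 in the ZincDef_TNF libraries. Its TMM-scaled CPM was 40.6, 48.4 and 43.5, against 59.7, 21.9 and 26.6. The 3 St_TNF values were close to each other and lay in the gap between ZincDef_TNF 1 and the other two. The diets differed by a log2 fold change of -0.28 (SE 0.44, 95% interval -1.24 to 0.67, adjusted p = 0.846). Without ZincDef_TNF 1 the value was -0.85, without ZincDef_TNF 3 it was -0.06, and without ZincDef_TNF 2 it turned to 0.017.

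Ephb2 (ENSMUSG00000028664, chr4:136374850-136563351, minus strand), a receptor known from stem and progenitor cells of the lower crypt, had 301, 254 and 198 counts in the St_TNF libraries and 456, 84 and 59 in the ZincDef_TNF libraries. Its TMM-scaled CPM was 23.8, 27.6 and 22.2, against 31.4, 17.7 and 10.1. The layout was that of Ephb3, with ZincDef_TNF 1 above and ZincDef_TNF 2 and 3 below the St_TNF libraries. The log2 fold change was -0.30 (SE 0.44, 95% interval -1.27 to 0.66, adjusted p = 0.837), with -0.81 when ZincDef_TNF 1 was left out and 0.055 when ZincDef_TNF 3 was left out.

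The ratio of the receptors within a library does not depend on how the libraries are scaled. Per length, Ephb3 was 4.45, 4.58 and 5.13 times Ephb2 in the St_TNF libraries and 4.97, 3.23 and 6.87 times in the ZincDef_TNF libraries. The mean log2 ratio was 2.24 ± 0.11 and 2.26 ± 0.55 (SD, n = 3 each), a difference of 0.03 (exact two-sided permutation p = 1.0). Ephb3 was thus above Ephb2 in 6 of 6 libraries.

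Fzd5 (ENSMUSG00000045005, chr1:64769717-64776934, minus strand), the Frizzled receptor known to be needed for Paneth cell maturation, had 203, 126 and 38 counts in the St_TNF libraries and 142, 27 and 6 in the ZincDef_TNF libraries. On TMM-scaled CPM it was at 16.1, 13.7 and 4.25, against 9.77, 5.69 and 1.02. The low St_TNF 3 value lay below 2 of the 3 ZincDef_TNF values. The log2 fold change was -1.01 (SE 0.68, 95% interval -2.51 to 0.49, adjusted p = 0.707), and it was -1.77 without ZincDef_TNF 1, -0.67 without St_TNF 1 and -0.49 without ZincDef_TNF 3.

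Csf1 (ENSMUSG00000014599, chr3:107648364-107667806, minus strand), the growth factor of macrophages, was the scarcest member with counts. It had 14, 14 and 33 counts in the St_TNF libraries and 40, 14 and 13 in the ZincDef_TNF libraries, or 1.11, 1.52 and 3.69 against 2.75, 2.95 and 2.22 TMM-scaled CPM. On this scale the spread was larger in the standard diet group (SD 1.39 against 0.379). By CPM without the TMM factors it was smaller there (SD 0.725 against 1.54). A log2 fold change of 0.34 was fitted for the diet (SE 0.59, 95% interval -0.96 to 1.64, adjusted p = 0.871). Its direction turned to -0.13 with total counts only, and the value was 0.02 without St_TNF 1, 0.15 without St_TNF 2 and 1.06 without St_TNF 3.

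**Figure D1:**
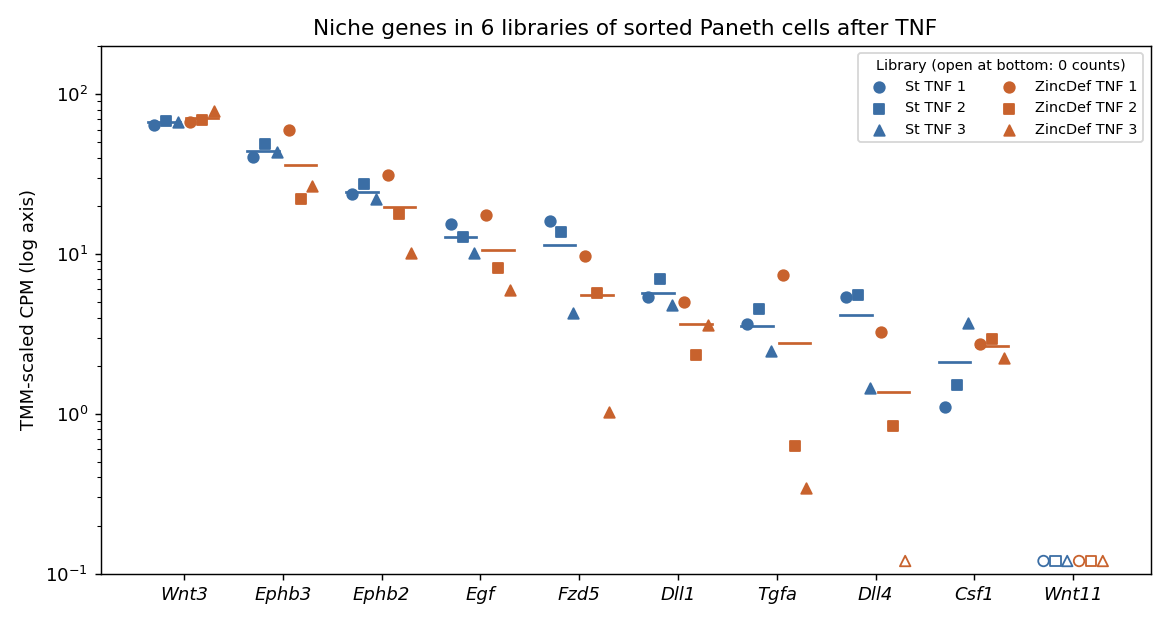
TMM-scaled CPM (log axis) of the 10 members in each of the 6 libraries, with a symbol for each library, a horizontal line at the mean of each group (n = 3) and open symbols at the bottom for 0 counts. Wnt3 lies between 64.5 and 78.0 in all libraries, and in Egf, Tgfa, Ephb2 and Ephb3 ZincDef_TNF 1 is the highest point while the other ZincDef_TNF libraries are the lowest.

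Over the members, 7 of the 9 tested genes had a lower and 2 a higher fitted mean in ZincDef_TNF, with a median log2 fold change of -0.28. The share with a lower mean was 77.8%, against 50.0% of all tested genes. None of the 9 was called at an adjusted p of 0.05, where 0% of all 9749 genes were called, and none had an unadjusted p under 0.05, where 4.03% of all genes were lower and 2.58% higher. None had groups that did not overlap in TMM-scaled CPM, as was the case for 6.58% of all genes lower and 3.51% higher. All 9 were lower with total counts only, with a median of -0.70 beside that of -0.67 for all tested genes.

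**Figure D2:**
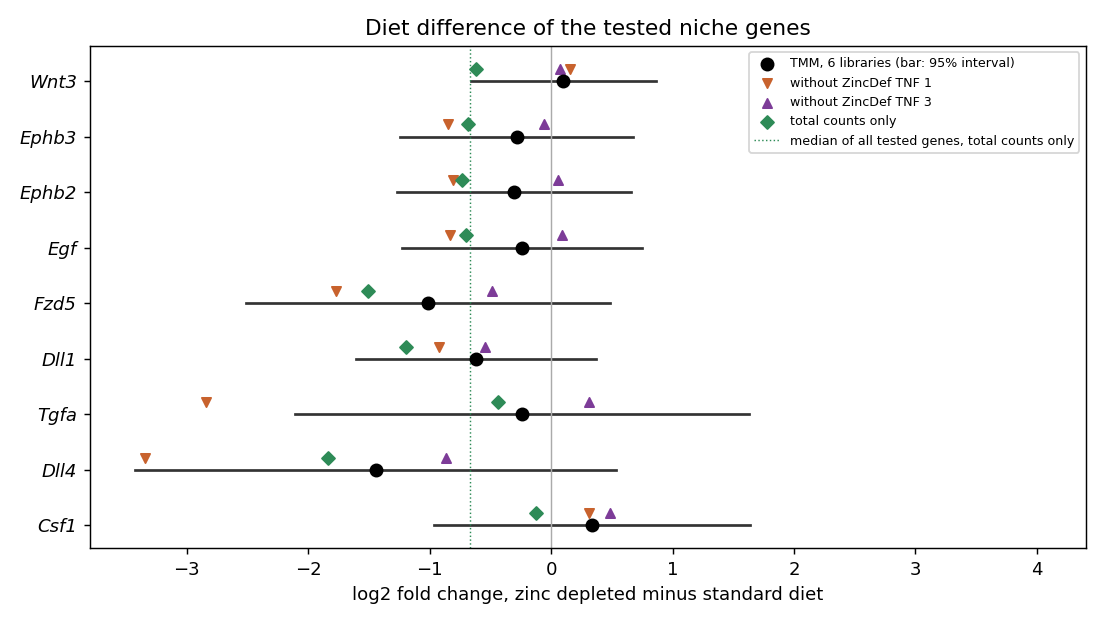
Log2 fold change of ZincDef_TNF over St_TNF for the 9 tested members, with the 95% interval of the edgeR fit (bars), and the values without ZincDef_TNF 1, without ZincDef_TNF 3 and with total counts only. Every interval includes 0; Tgfa and Dll4 move furthest when ZincDef_TNF 1 is left out, and the dotted line marks the median of all tested genes with total counts only, -0.67.

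The layout over single libraries recurred among the members. ZincDef_TNF 1 was above ZincDef_TNF 2 and 3 for 7 of the 9 tested members (Egf, Tgfa, Dll1, Dll4, Ephb2, Ephb3 and Fzd5), compared with 44.4% of all tested genes. ZincDef_TNF 2 and 3 were below every St_TNF library for 6 of the 9, compared with 22.6%. Without ZincDef_TNF 1, 6 of the 9 had an unadjusted p under 0.05 and a lower mean (11.8% of all genes in that fit), and none was called. The library left out and these layouts were singled out by the values of the same members. A lower mean without that library follows in part from this choice, so that these shares are descriptions and not a test of diet. These members share libraries, so that their layouts are not independent of each other. As a description over the 6 libraries, log2 TMM-scaled CPM of Dll4 and Fzd5 had a Pearson correlation of 0.976, Egf and Tgfa one of 0.957, and Wnt3 and Fzd5 one of -0.909, with the scaling of each library shared by both genes.

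By the same measure the tested genes most like Wnt3 were Rab28, Lgmn and Dynlrb1, with Pearson correlations of 0.996, 0.993 and 0.984 over 6 libraries. The genes most like Ephb3 were Zfc3h1, Lrrc41 and Vps8, with 0.997, 0.996 and 0.994. With 6 points and 9749 genes, values this high are descriptions only.

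Markers of other cells were counted in the same libraries, since Dll1, Dll4, Ephb2 and Fzd5 are also known from crypt progenitors. The summed TMM-scaled CPM of 5 stem cell markers, among them Lgr5 and Olfm4, ranged from 1009 to 2242 in the St_TNF and from 499.8 to 1226 in the ZincDef_TNF libraries. That of 7 proliferation markers was at most 132 in the St_TNF and 106 in the ZincDef_TNF libraries. ZincDef_TNF 1, the library highest in Ephb2 and Ephb3, was the lowest in both lists on this scale, at 499.8 and 50.5. By CPM without the TMM factors ZincDef_TNF 2 was the lowest instead, at 524 against 727 for the stem cell and 41.5 against 73.5 for the proliferation markers. For 6 goblet cell markers the sums ranged from 4788 to 8421 in the St_TNF and from 8265 to 10520 in the ZincDef_TNF libraries. Tuft cell markers (6 genes) ranged from 29.1 to 508 and from 65.9 to 135, enterocyte markers (9 genes) from 67.4 to 201 and from 62.2 to 82.4, and immune markers (7 genes) from 48.5 to 165 and from 45.5 to 182. Enteroendocrine markers (7 genes) summed to at most 37.3 in any library. The T cell marker Cd3e was at 0 in all libraries. Of the 7 immune markers 5 were at 0 and 2 over 3 counts in ZincDef_TNF 1, whereas 6 were over 3 counts in ZincDef_TNF 3. The immune sums thus rest on few genes in some libraries. In ZincDef_TNF 3 only 3 of the 5 stem cell markers were over 3 counts and 1 was at 0. Csf1 and Wnt11 are also known from stromal cells, and 7 mesenchymal markers summed to 1.42 to 3.04 in the St_TNF and 0.963 to 7.34 in the ZincDef_TNF libraries, or 14 to 43 counts per library. Of these Pdgfra and Foxl1 were at 0 in all libraries and 1 to 3 genes were over 3 counts in each. The 4 endothelial markers summed to at most 2 counts in any library, with Cdh5, Kdr and Cldn5 at 0 in all. The part of these other cells in the member values was not tested.

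The partners of the members were taken from 12 lists with 98 genes, of which 46 were tested and 21 had no count in any library. None was called, 32 had a lower and 14 a higher fitted mean, and the median log2 fold change was -0.25. Unadjusted p was under 0.05 for 3 lower genes (6.52% of the 46, against 4.03% of all genes) and 1 higher gene (2.17%, against 2.58%). With total counts only, 44 of the 46 were lower, with a median of -0.70.

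Wls, the carrier that takes Wnt proteins to the cell surface, had a mean level per length of 5.45, with 314, 207 and 262 counts in the St_TNF and 294, 228 and 224 in the ZincDef_TNF libraries. Its log2 fold change was 0.47 (SE 0.41, adjusted p = 0.743). Porcn, which acylates Wnt proteins, had 2 to 25 counts (log2 fold change -0.26, SE 0.65), and the Wnt deacylase Notum had at most 7 counts and was not tested. Of the 12 Wnt receptor genes 8 were tested, 3 higher and 5 lower, and none was called. Fzd9 (level per length 3.57) and the co-receptor Lrp5 (3.56) were above Fzd5, while Fzd7 (1.11) was close to it and had a log2 fold change of -1.11 (SE 0.53, adjusted p = 0.681).

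Among the 11 EGF family ligands 4 were tested, 2 higher and 2 lower. After Egf, the levels per length of Btc (0.663) and Tgfa (0.637) were close. Btc was over 3 counts in 6 libraries and Tgfa in 4. Btc, which encodes betacellulin, had 17, 8 and 34 counts in the St_TNF and 45, 25 and 43 in the ZincDef_TNF libraries, and a log2 fold change of 1.37 (SE 0.62, unadjusted p = 0.0496, adjusted p = 0.681), which was 2.24 without St_TNF 3 and 0.66 with total counts only. Of the receptors of these ligands, Erbb3 had a level per length of 3.60, Erbb2 1.46 and Egfr 0.611. Erbb2 had 268, 116 and 20 counts in the St_TNF and 56, 16 and 4 in the ZincDef_TNF libraries, with overlapping groups and a log2 fold change of -2.16 (SE 0.76, adjusted p = 0.681). The Erbb2 value was -1.46 without St_TNF 1 and -2.59 without ZincDef_TNF 1. For Erbb3 the log2 fold change was -1.23 (SE 0.54, adjusted p = 0.681), with -0.71 without St_TNF 1 and -1.88 without ZincDef_TNF 1. For Egfr, the receptor that binds Egf and Tgfa, it was 0.14 (SE 0.43, adjusted p = 0.926).

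All 5 Notch ligand genes were tested and all 5 had a lower fitted mean, against 50.0% of all tested genes. The median log2 fold change was -1.20, and none was called. Only 2 of the 5 were over 3 counts in all 6 libraries, so that this median rests in part on genes near the floor. It is the value of Jag1, which had 26, 5 and 13 counts in the St_TNF and 20, 0 and 0 in the ZincDef_TNF libraries. Jag2 had 23, 8 and 8 against 14, 0 and 0. Both passed the low-count filter through the St_TNF libraries and ZincDef_TNF 1, so that their lower direction follows in part from the filter. Without ZincDef_TNF 1 only 3 passed the low-count filter, all 3 lower, with a median of -0.92. Dll3, a divergent ligand that does not activate Notch on neighbouring cells, was at a level per length of 0.911, near Dll1, and at a log2 fold change of -0.07 (SE 0.59). The Notch receptors were low, at a level per length of 0.233 for Notch1, which was not tested, 0.200 for Notch4 and 0.134 for Notch2. Their log2 fold changes were -0.06 (SE 0.81) for Notch4 and -0.95 (SE 0.62) for Notch2. Of 15 genes of ligand activation and receptor cleavage 12 were tested, 3 higher and 9 lower. The gamma-secretase subunits Psenen (8.20) and Ncstn (6.96) led that list in level per length. The log2 fold changes were 0.49 (SE 0.43) for Psenen, -0.16 (SE 0.41) for Ncstn and -1.01 (SE 0.63) for Rfng, a glycosyltransferase that modifies Notch.

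Of the 5 EphB genes 3 were tested, all lower and none called. Ephb4, better known from vessels, lay between Ephb3 and Ephb2 at a level per length of 3.16, with a log2 fold change of -0.87 (SE 0.45, adjusted p = 0.681). In the EphA family only Epha2 (0.984) and Epha1 (0.653) were tested, with log2 fold changes of 0.81 (SE 0.79) and -0.26 (SE 0.51), and Epha4 had 1 to 12 counts. The Epha2 value was 0.29 without St_TNF 2, 2.61 without St_TNF 3, 1.75 with limma-voom and 1.57 with the replicate block, and was not called in any of these. Among 8 ephrins, the ligands of Eph receptors, Efna1 was the most abundant (5.02) with a log2 fold change of 0.70 (SE 0.40, adjusted p = 0.681), and Efna4 (1.21) was not tested. Efnb1, a ligand of EphB receptors, had 161, 163 and 102 counts in the St_TNF and 157, 22 and 19 in the ZincDef_TNF libraries. On TMM-scaled CPM its groups did not overlap, at 13.9 ± 3.31 and 6.23 ± 4.02 (SD, n = 3 each), the only such gene of the 46 (2.17%, against 6.58% of all genes), and its log2 fold change was -1.13 (SE 0.48, unadjusted p = 0.0378, adjusted p = 0.681). In counts ZincDef_TNF 1 (157) was above St_TNF 3 (102), at totals of 9992139 and 9977439. The separation of the groups thus depends on the TMM factors. Without ZincDef_TNF 1 the Efnb1 value was -1.81 (adjusted p = 0.117). It was -0.91 without ZincDef_TNF 2, -0.92 without St_TNF 2 and -1.54 with total counts only. Csf1r, the receptor for Csf1, had 2 to 6 counts per library, and Il34, its other ligand, had 0 to 6.

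**Figure D3:**
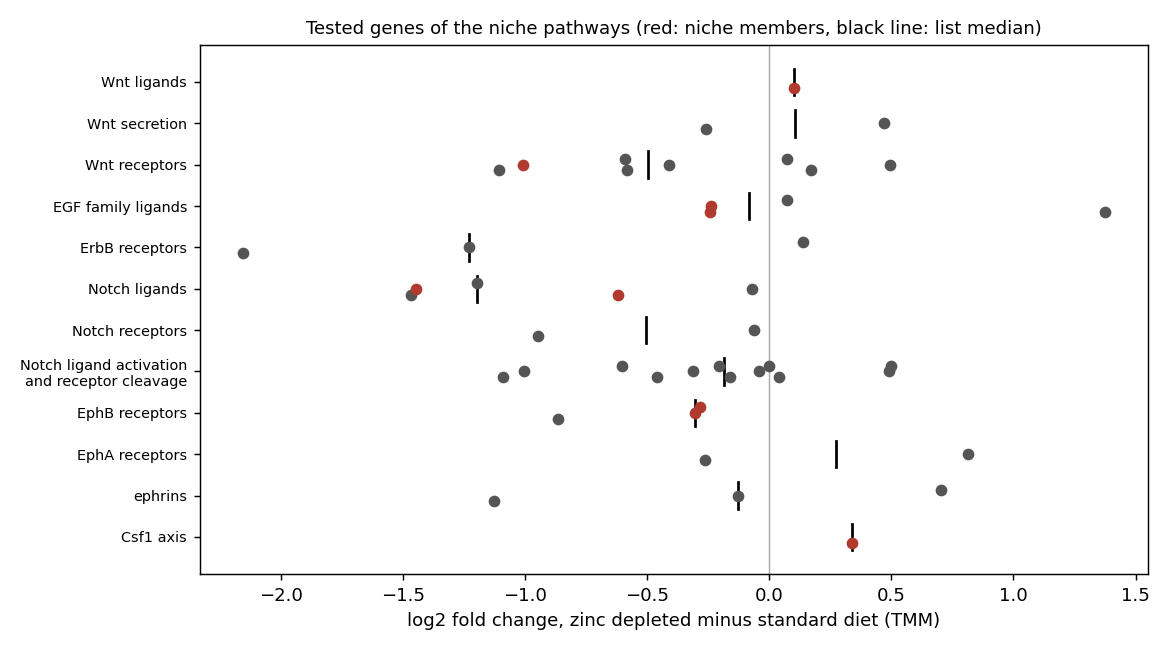
Log2 fold change of ZincDef_TNF over St_TNF for the 46 tested genes of the 12 pathway lists, one row per list, with points for genes and a black line at the median of the list. Red marks the niche members, and no gene passed the test. In this fit the tested Notch ligands (5), Notch receptors (2) and EphB receptors (3) lie below 0, with Dll3 and Notch4 close to it. With limma-voom 1 Notch ligand and 1 Notch receptor were higher, and without ZincDef_TNF 2 1 EphB receptor was higher.

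Some of these reads cannot be given to one gene with certainty. In the GENCODE M39 annotation, 27.6% of the exonic bases of Dll1 overlap exons of Fam120b on the opposite strand, and 18.1% of those of Fzd5 and 15.6% of those of Dll4 overlap unnamed transcripts on the opposite strand. Whether the counting used strand is not given in the sources used here, and without strand these reads cannot be told apart. Wnt3 and Ephb3 had no such overlap.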

How the data were processed

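A table of raw counts for each gene in 6 libraries was deposited by the authors. Per the labels these were single-end Element AVITI reads, and the submitters' processing notes name FastQC, Trimmomatic 0.39, STAR 2.7.10a, DESeq2 and mm39. The counting program is not given in the sources used here, nor is its strand setting. Symbols, positions and canonical transcript lengths came from GENCODE M39 (GRCm39), which held 54749 of the 55414 genes.

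Diets were compared with the quasi-likelihood test of edgeR 4.0.16 (R 4.3.3), with TMM, filterByExpr and diet as the only term, 3 libraries per group. Tests were two-sided and Benjamini-Hochberg adjusted over 9749 genes (threshold 0.05). Log2 CPM used a prior count of 2, and ratios 0.5 added to each count. Intervals are 95% intervals, and the floor of 3 counts covers only counting error. DESeq2 1.42.0, limma-voom (limma 3.58.1), RLE factors, total counts only, scaling without alpha-defensins, no filter, a replicate block and leaving out each library were alternatives. The code was tested on simulated data.

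All 10 members were named, and Jag1 and Jag2 were named for their counts of 0. From each pathway list the 3 genes with the highest level per length and the tested gene with the smallest unadjusted p were named, and for Wnt3 and Ephb3 the 3 most correlated genes. A gene that this rule names is not reported here. Members and lists were chosen with earlier results of these data known.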

Additional observations from a re-analysis of the deposited data

How the results depend on the processing

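No member was called under any of the 13 alternatives. Of 117 member values, 110 kept their direction and 7 reversed. With total counts only the log2 fold change was -0.62 for Wnt3, -0.13 for Csf1, -0.078 for Efna1, -0.41 for Wls, -0.48 for Psenen and -0.28 for Egfr, on a scale where the median of all genes was -0.67. With limma-voom it was 0.025 for Dll3 and 0.27 for Notch4. Leaving out single libraries, it ranged from -0.83 to 0.087 for Egf, -2.84 to 0.31 for Tgfa, -0.81 to 0.055 for Ephb2, -0.85 to 0.017 for Ephb3, -0.53 to 0.14 for Ncstn, -0.38 to 0.29 for Dll3, -0.36 to 0.40 for Egfr, -0.64 to 0.92 for Notch4, -0.53 to 0.14 for Porcn and -0.41 to 0.14 for Epha1. The lowest values of the 4 members came without ZincDef_TNF 1, and the highest without ZincDef_TNF 3, or for Ephb3 without ZincDef_TNF 2. The cause was not tested.

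The count of called genes over the whole table was 0 with edgeR (645 at an unadjusted p under 0.05), 10 with DESeq2, 0 with limma-voom (625 at an unadjusted p under 0.05) and 76 without the filter, where 17790 genes were tested and Erbb2 was called at -2.15 (adjusted p = 0.0160). The SE of Erbb2 was 0.52 without the filter, against 0.76 with it. With the filter Erbb2 was not called by edgeR, DESeq2 or limma-voom (adjusted p = 0.681, 0.344 and 0.724). Leaving out single libraries gave 0 to 28 called genes, the 28 without St_TNF 3. The difference in log2 ratio of Ephb3 to Ephb2 then ranged from -0.23 to 0.31. By union exon length 4 rather than 5 members had a mean level per length of 1 or more, with Egf at 0.926.

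The replicate block gave 0 called genes, 962 at an unadjusted p under 0.05, and 0.051 for Notch4, and no other named gene reversed under it. Correlations of the deviations of same-numbered libraries were 0.147, -0.058 and 0.248, and St_TNF 2 correlated best with ZincDef_TNF 1 (0.250). With 3 libraries per group these values cannot decide whether same-numbered samples were paired, and the labels give only the number. Low counts limit Wnt11, Tgfa and Dll4, which were at 4 counts or fewer in at least 2 libraries. For Tgfa and Dll4 these were ZincDef_TNF 2 and 3, and ZincDef_TNF 3 had the highest total counts (12772373). St_TNF 2, with the lowest total (6139397), had 42 counts of Tgfa and 51 of Dll4. The reason was not tested.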
